A study of Mus musculus with 6 samples.

Results

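The genes of the microtubule motors were taken by name from tables of gene expression in mouse brain. The set held every symbol that starts with Kif, Kifc or Klc and a digit, every symbol that starts with Dync or Dynl, and Kifap3 and Dctn1 to Dctn6. Of the 27378 genes listed, 70 met this rule. They were 47 kinesin and kinesin light chain genes, 16 dynein chain genes, 6 dynactin subunit genes and Kif16bos. Kif16bos is a transcript on the strand opposite to Kif16b, without an exon overlap with it in the annotation used. The libraries came from whole brains of wild-type male C57BL/6J mice, a tissue in which every brain cell type is mixed. The Control group (3 libraries) had received sterile distilled water through the nose, and the PS group (3 libraries) had received polystyrene nanoplastics by the same route, each for 28 days. The sources used here do not state the age of the mice, the dose or the particle size. The labels also do not say that each library came from a separate mouse, so the p-values measure only the spread between these libraries, which may be technical.

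Kinesins carry cargo along microtubules, mostly toward the plus ends, and cytoplasmic dynein, helped by its cofactor dynactin, carries cargo toward the minus ends. In an axon the plus ends point away from the cell body, so kinesins bring vesicles and mitochondria to the synapse and dynein brings signalling endosomes and worn organelles back. Neurons depend on both, and inherited mutations of the human KIF5A and DCTN1 genes are known causes of motor neuron disease. A smaller set of motors serves cilia or the mitotic spindle.

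Each library held 39239183 to 40335590 reads, so a motor gene kept in the comparison rested on between 35 and 121524 reads in a library. In a principal component analysis the first axis, with 42.3% of the variance, set Control replicate 2 at a distance from the rest. It was the lowest Control library for 23 of the 43 motor genes compared. Summed neuron markers were at 2001 to 2091 FPKM in Control and 1931 to 2086 FPKM in PS, and all 8 were detected in every library. Summed red cell markers were at 127 to 196 FPKM in Control and 56.7 to 99.5 FPKM in PS, with none of 5 called. Summed markers of mature oligodendrocytes were at 1147 to 1647 FPKM in Control and 1576 to 1771 FPKM in PS, and those of their precursors were at 75.4 to 92.5 FPKM and 95.7 to 100.6 FPKM. Most of the precursor sum was Olig1, with means of 55.2 FPKM in Control and 64.6 FPKM in PS. Of the 6 precursor markers, 5 were fitted higher in PS and 1, Pdgfra, lower (log2 fold change -0.078), with 0 called. Skeletal muscle markers summed to 12.03 FPKM in PS replicate 1 and 3.57 to 4.97 FPKM in the other libraries. Cerebellum markers summed to 416 FPKM in PS replicate 1 and 287 to 343 FPKM in the others. The part of these differences in the motor values was not tested. In whole tissue, fewer cells of a type and less RNA per cell cannot be told apart.

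No motor gene passed the test for a difference between PS and Control. FPKM are fragments per kilobase of gene per 1000000 reads, and genes with a mean of at least 1 FPKM were compared on the log2(FPKM + 1) scale. None of the 43 motor genes above this level was called by limma at an adjusted p under 0.05, against 20 of 12229 genes in all (0.164%), each of them lower in PS. With the replicate numbers as a block limma called 48 genes and again 0 motor genes. With 1 library left out the count over all genes ran from 0 (without PS replicate 2) to 66 (without Control replicate 3), with 0 motor genes each time. The lowest adjusted p of a motor gene in limma was 0.549, for Kif17. At an unadjusted p under 0.05, limma gave 2 motor genes (4.65%), against 727 genes in all (5.94%). On whole reads recovered from the FPKM steps, limma-voom also called 0 of the 43.

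Fitted differences were small in both directions. Of the 43 genes, 25 were higher in PS and 18 lower, with a median log2 fold change of 0.018, beside 0.003 over all genes tested. On the log2(FPKM + 1) scale the log2 fold changes ran from -0.20 to 0.24, at most 1.18-fold. The added 1 shrinks the fold of low genes, and the ratio of group means was 1.22 for Kif17 and 0.838 for Dynlt1b. On that scale the 95% intervals of all 43 genes lay within 0.5 of 0, and those of 28 genes lay within 0.25. Limma-voom on genes with a mean of at least 10 recovered reads gave wider intervals for some low genes. They were -0.778 to 0.717 for Dynlt1f, -0.659 to 0.144 for Dynlt1b and -0.555 to 0.438 for Dynlrb2. Groups did not overlap for 5 genes (11.6%), against 11.3% of all genes tested: Dctn3, Kif17 and Kifc3 were above in PS (4.93% of all genes were), and Dctn4 and Kif3b below (6.33% of all genes were).

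**Figure D1:**
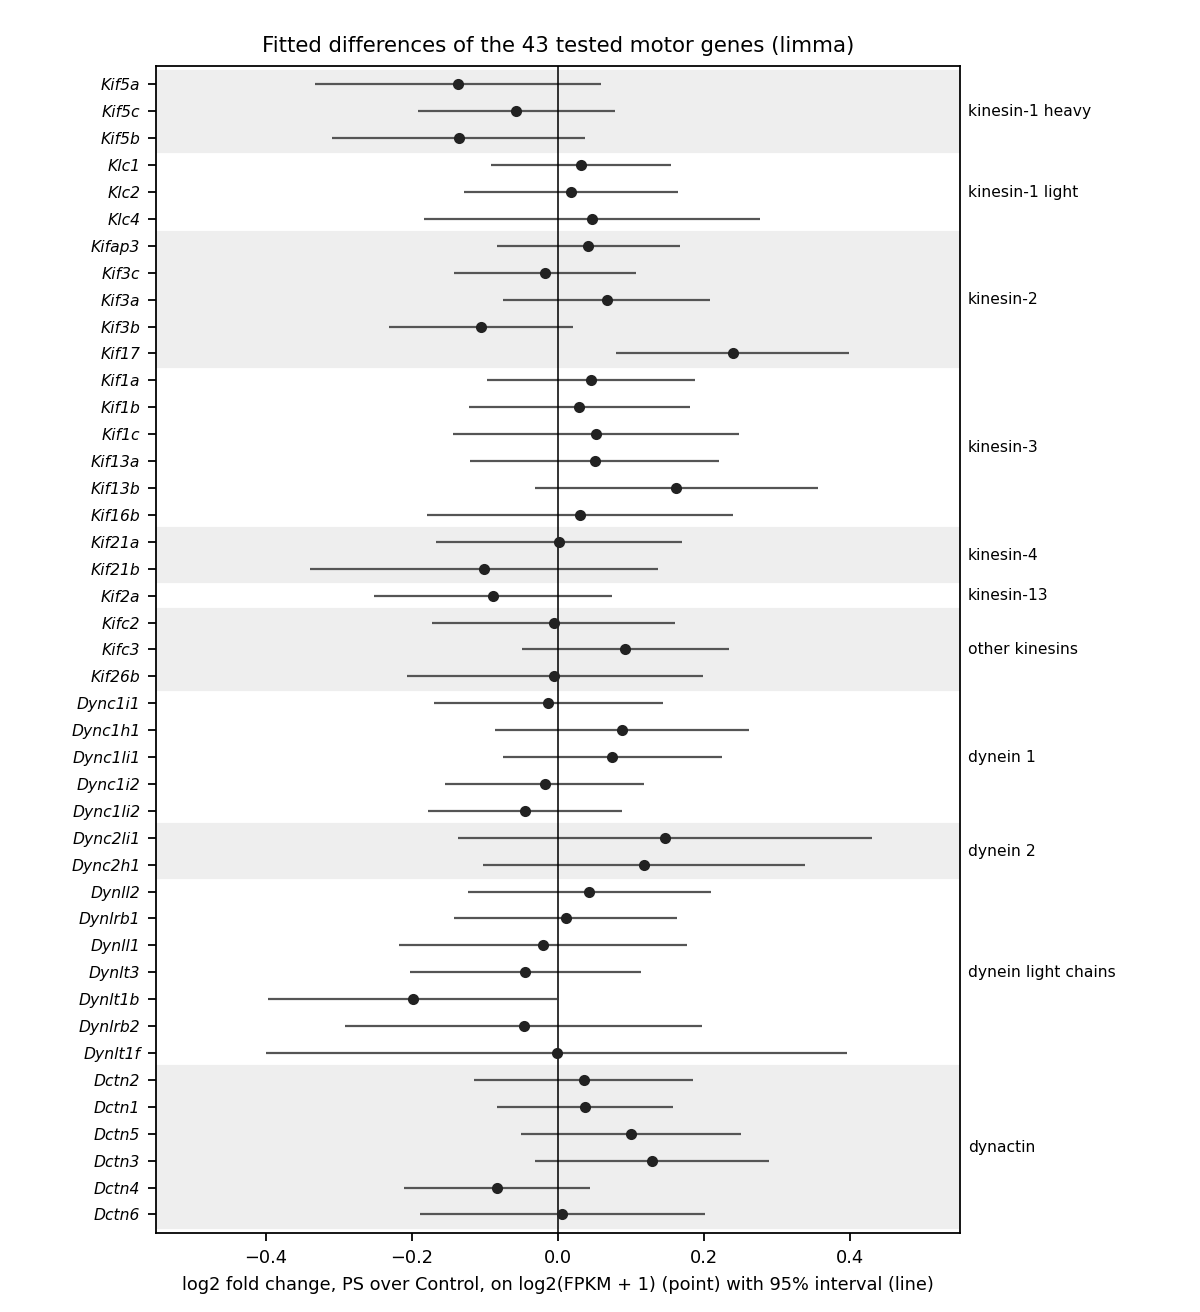
Fitted log2 fold change of each of the 43 tested motor genes, PS against Control (x axis, from log2(FPKM + 1); points, with 95% intervals as lines), grouped by role (y axis). The points lie between -0.20 and 0.24, and only the intervals of Kif17 and Dynlt1b leave out 0.

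The motors covered a wide range of levels. Kif5a was the highest, at a mean of 338 FPKM over the 6 libraries and above 99.2% of the genes tested. Dynll2 followed at 268.5 FPKM, and then Kif1a at 149.8 FPKM, Kif5c at 147.7 FPKM and Dynlrb1 at 134 FPKM. Kif1a and Kif5c did not differ beyond their spread between libraries. The lowest of the 43 was Dynlt1f at 1.34 FPKM. Replicates of a gene differed by a median coefficient of variation of 7.16% in Control and 5.64% in PS, near the 8.11% and 5.45% over all genes tested. The FPKM of the whole set summed to 2304 to 2388 in Control and 2304 to 2357 in PS.

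**Figure D2:**
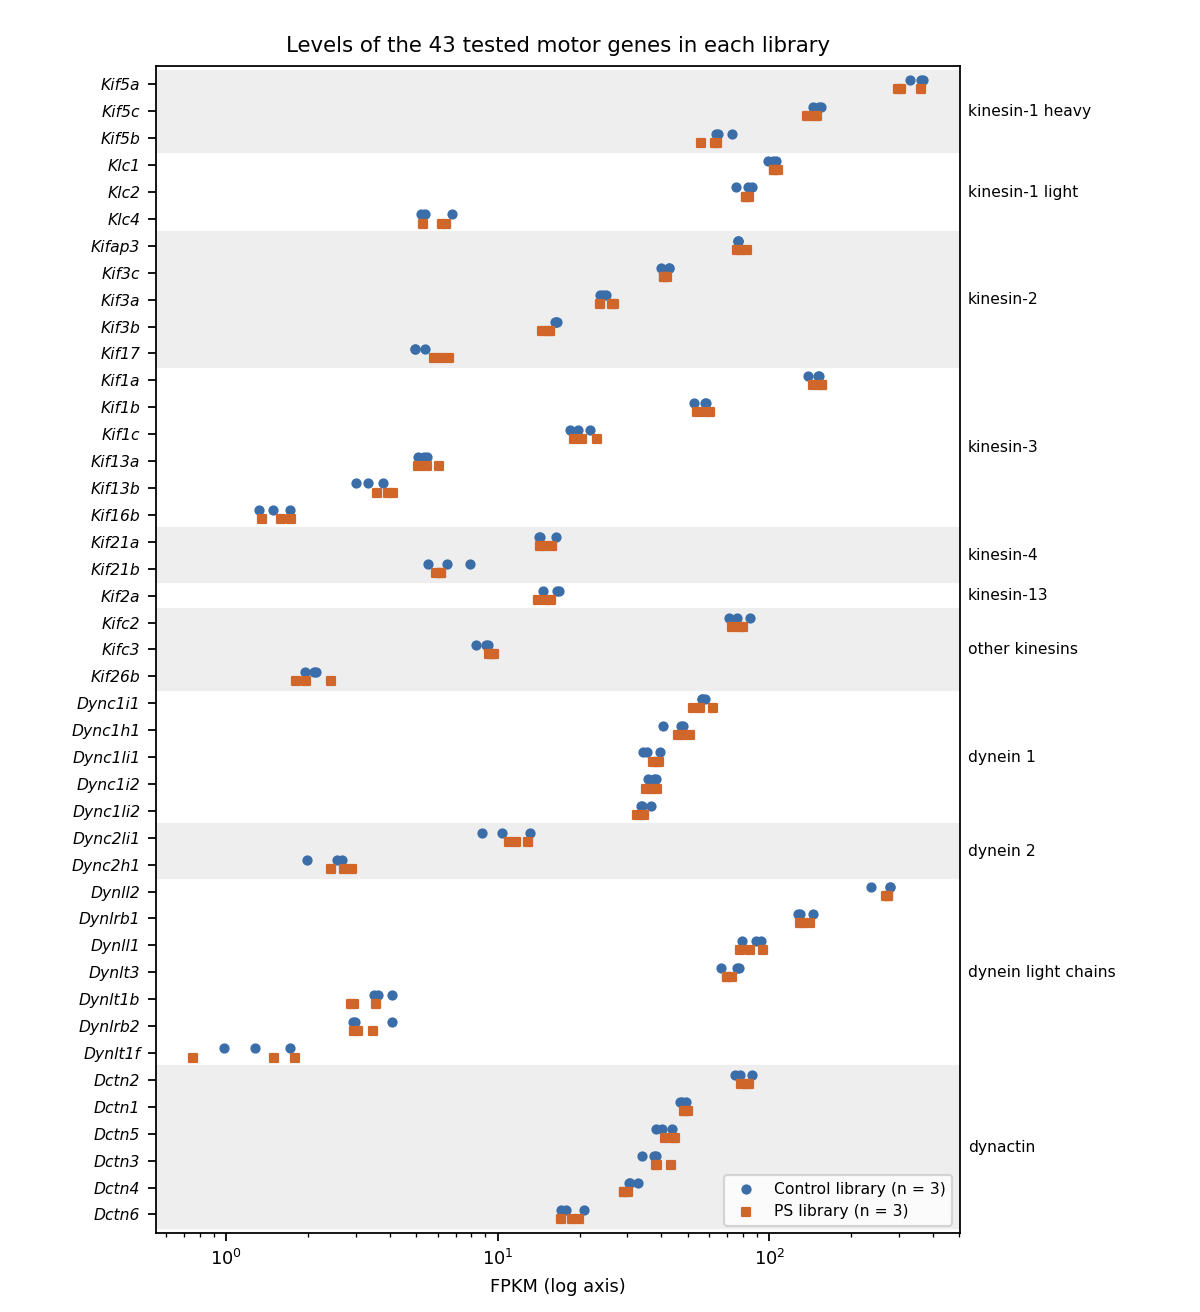
Level of each of the 43 tested motor genes in each library (x axis, FPKM on a log axis; circles, 3 Control libraries; squares, 3 PS libraries), grouped by role (y axis). Kif5a and Dynll2 are the highest and Dynlt1f the lowest, and circles and squares do not overlap for 5 of the genes.

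Conventional kinesin, or kinesin-1, was carried mostly by Kif5a, the neuronal heavy chain linked to motor neuron disease. Kif5a was at 362, 369 and 329.7 FPKM in Control replicates 1, 2 and 3 and at 306, 299 and 363 FPKM in PS replicates 1, 2 and 3. PS replicates 1 and 2 were below all Control libraries, while PS replicate 3 lay among them, so the groups overlapped. The log2 fold change of Kif5a was -0.14 ± 0.086 (SE), with an adjusted p of 0.924 in limma. Kif5b, the heavy chain found in most cell types, was at 73.1, 64.9 and 63.4 FPKM in Control and 62.8, 56.0 and 64.2 FPKM in PS, in the same order of replicates, which holds for all values given by library. PS replicate 3 lay between Control replicates 2 and 3 and the other PS libraries lay below all Control libraries. The log2 fold change of Kif5b was -0.14 ± 0.077 (adjusted p = 0.891, limma). Kif5b was called lower only when limma weighted the libraries (log2 fold change -0.24, adjusted p = 0.0454), a setting under which 5.17% of all genes were called.

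Kif5c, the other heavy chain enriched in neurons, was at 154, 152.5 and 145 FPKM in Control and 150.0, 138 and 147 FPKM in PS. All 3 heavy chains were thus fitted as lower in PS, with a median log2 fold change of -0.14, but none was called. With 1 library left out that median ran from -0.175 (without Control replicate 3) to -0.074 (without Control replicate 1). For Kif5a the log2 fold change ran from -0.22 without PS replicate 3 to -0.085 without PS replicate 2, and for Kif5b from -0.175 to -0.074. The 3 heavy chains' summed level was 589.7, 587 and 538 FPKM in Control and 519, 492 and 574 FPKM in PS, which overlapped through PS replicate 3. Within a library Kif5a made up 61.9 ± 0.93% (SD, n = 3) of the heavy chain FPKM in Control and 61.0 ± 2.2% in PS. Kif5c made up 26.4 ± 0.51% and 27.5 ± 1.7%, and Kif5b the rest, at 11.7 ± 0.67% and 11.6 ± 0.49%. The proportions of the 3 heavy chains overlapped between the groups.

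The kinesin light chains join the heavy chains to cargo. Klc1, the main one in neurons, was at 103, 99.1 and 106 FPKM in Control and 104, 107 and 104 FPKM in PS. Klc2 was at 86.6, 75.1 and 83.5 FPKM in Control and 82.2, 83.8 and 81.7 FPKM in PS. Both overlapped between the groups, at log2 fold changes of 0.031 ± 0.054 and 0.018 ± 0.065. Klc4 was much lower, between 5.23 and 6.76 FPKM over the 6 libraries. Klc3 lay under the level compared, at 0.916 ± 0.38 FPKM in Control and 0.91 ± 0.17 FPKM in PS. Klc1 held 53.8 ± 1.4% of the light chain FPKM in Control and 54.0 ± 0.24% in PS. All 3 light chains that were compared were fitted slightly above Control, and 0 were called; with library weights their median log2 fold change was -0.055.

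**Figure D3:**
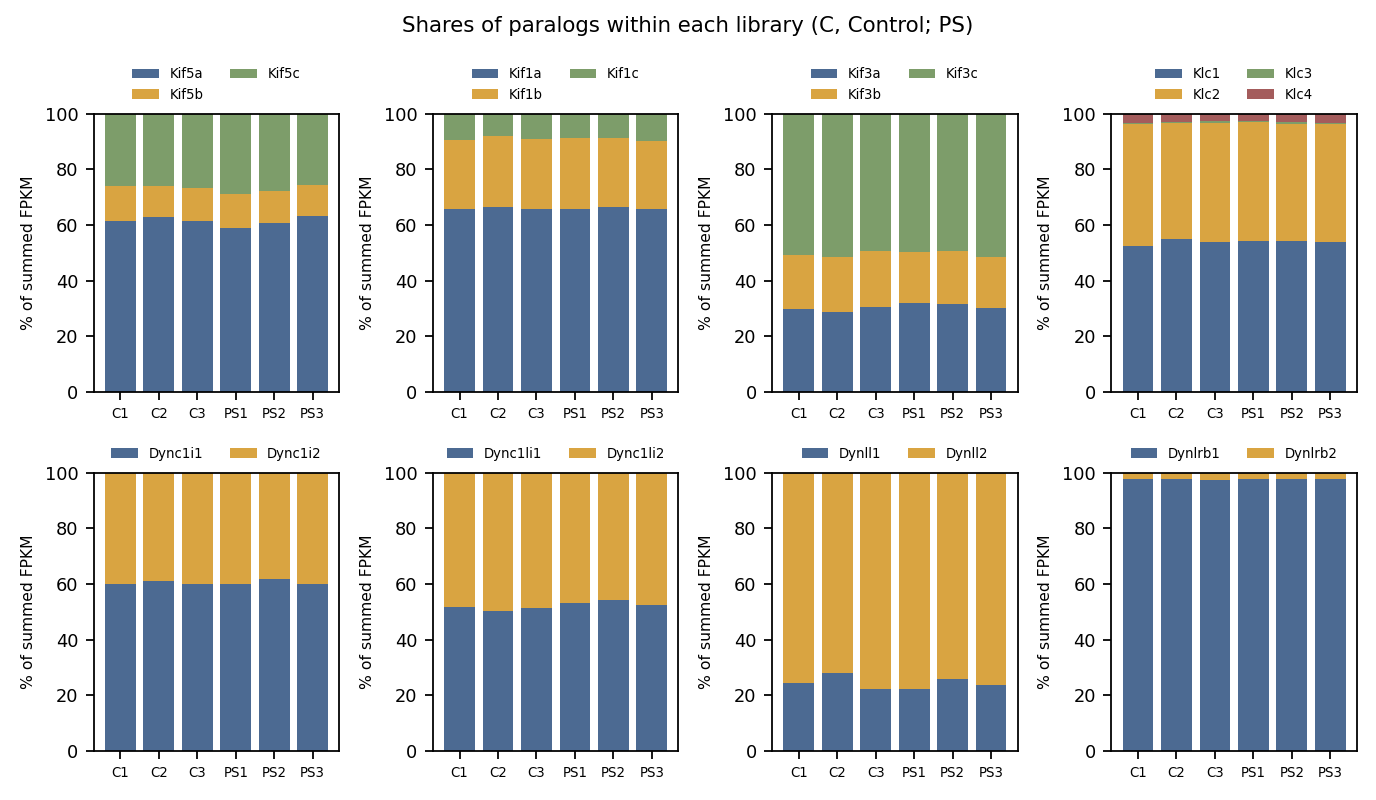
Share of each gene in the summed FPKM of its paralog set (y axis, %) in each library (x axis; C1 to C3, Control; PS1 to PS3, PS), for 8 sets of motor genes. The stacks are alike across libraries; the share of Kif3b is 19.5 to 20.2% in Control and 18.3 to 18.8% in PS, and that of Dync1li1 50.3 to 51.8% and 52.4 to 54.1%.

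Kinesin-2 motors work in dendrites, axons and cilia. The heterotrimer is built from Kif3a, Kif3b or Kif3c and the cargo adaptor Kifap3, while Kif17 works as a homodimer that carries glutamate receptor vesicles in dendrites and enters cilia. Kif17 gave the lowest p of the motor set. It was at 4.94, 5.40 and 4.96 FPKM in Control and 6.16, 6.62 and 5.83 FPKM in PS. Every PS library was above every Control library, with group means of 5.10 ± 0.26 and 6.20 ± 0.40 FPKM (SD, n = 3). The log2 fold change of Kif17 was 0.24 ± 0.07 (95% interval 0.08 to 0.40), with an unadjusted p of 0.00799 and an adjusted p of 0.549 in limma, so Kif17 was not called. Left out one at a time, no library moved its log2 fold change outside 0.20 to 0.28. With weights for the libraries, under which 5.17% of all genes were called, limma called Kif17 higher, at an adjusted p of 0.0252.

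The reads counted for Kif17 may not all be its own. In the GENCODE M21 annotation of build GRCm38, 74 exon bases of Kif17 are shared, on the same strand, with the neighbouring gene Sh2d5. This overlap is small: of the 50-base words in the transcripts of Kif17, 0.53% occurred in another gene. Sh2d5 was at 18.8, 21.9 and 22.03 FPKM in Control and 31.65, 37.2 and 23.0 FPKM in PS (log2 fold change 0.51, adjusted p = 0.545, limma). Sh2d5 was thus also above in every PS library, and its part in the values of Kif17 was not tested.

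The start of Kif17 is shown because 5 motor genes share a sequence there. An X-box, the kind of element bound by RFX factors at cilia genes, was searched for on both strands in the 250 bases before each RefSeq start (build GRCm38.p6) as GTTGCC, then 0 to 3 bases, then NGNNAC. Entries were at hand for 52 of the 70 motor genes, and Kif19a, Kif5a, Kif5b, Dynll2 and Dync2li1 were among those without one. This paired site was in 5 of 59 windows of motor genes (8.47%), against 567 of 32851 windows in all (1.73%). The element GTTGCC alone, which every paired site contains, was in 14 motor windows (23.7%) and 3425 windows in all (10.4%). The genes with the paired site were Kif17, Kif9 and Dynlrb2, shown here, and the mitotic kinesins Kif18a and Kif23. Other motor genes with roles at cilia had windows without it, among them Kif6, Kif7, Kif27, Dync2h1, Kif3a and Kif3b. The site thus did not mark the cilia motors as a class. Each line gives 120 bases before the start on the plus strand, with the paired site in capitals, and a match describes letters only, not binding. The lines span chr4:138262131-138262250 for Kif17, chr9:110476874-110476993 for Kif9 and chr8:116504895-116505014 for Dynlrb2.
Kif17: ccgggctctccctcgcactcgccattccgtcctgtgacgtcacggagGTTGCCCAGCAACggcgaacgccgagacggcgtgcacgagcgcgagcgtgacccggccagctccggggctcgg
Kif9: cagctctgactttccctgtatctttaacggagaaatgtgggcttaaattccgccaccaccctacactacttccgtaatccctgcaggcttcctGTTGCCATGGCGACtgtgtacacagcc
Dynlrb2: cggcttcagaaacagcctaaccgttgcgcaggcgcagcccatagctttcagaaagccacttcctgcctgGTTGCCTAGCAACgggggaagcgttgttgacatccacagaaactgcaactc
The site began 73 bases before the start of Kif17, 51 before that of Dynlrb2 and 27 before the later of the starts listed for Kif9. The element was chosen after the expression values were seen.

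The genes of the heterotrimer lay closer to Control than Kif17 did. Kif3b, a motor subunit, was at 16.4, 16.5 and 16.2 FPKM in Control and 15.4, 15.5 and 14.6 FPKM in PS. All PS libraries were below all Control libraries, at a log2 fold change of -0.105 ± 0.056 (adjusted p = 0.868, limma). Kif3a, its usual partner, was at 25.1, 23.8 and 24.4 FPKM in Control and 26.9, 26.2 and 23.9 FPKM in PS, and overlapped. Kif3c, the neuronal alternative to Kif3b, was at 42.6, 42.9 and 39.9 FPKM in Control and 41.8, 41.0 and 40.9 FPKM in PS. Kifap3 was at 77.0, 76.6 and 76.7 FPKM in Control and 78.7, 82.8 and 75.7 FPKM in PS, with the wider spread in PS. As a share of the 3 motor subunits, Kif3b was at 19.5, 19.9 and 20.2% in Control and 18.3, 18.8 and 18.4% in PS. The shares of Kif3b did not overlap and differed by 1.36 points on average, a difference given as a description, without a test. Kif3c, the largest part of this sum, shares 2617 exon bases with 1110002L01Rik on the opposite strand. The sources do not state whether reads were counted by strand, so its level and these shares are uncertain.

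Kinesin-3 motors carry synaptic vesicle precursors, dense-core vesicles and endosomes. Kif1a, the chief carrier of synaptic vesicle precursors, was at 152.0, 151.6 and 139 FPKM in Control and 156, 145 and 156 FPKM in PS. Kif1b, which has mitochondrial and vesicle-carrying forms, was at 57.9, 58.4 and 52.7 FPKM in Control and 60.6, 54.0 and 58.0 FPKM in PS. Both overlapped, at log2 fold changes of 0.045 ± 0.063 and 0.029 ± 0.067. Kif13b, a carrier of phosphoinositide and polarity cargo, was at 3.78, 3.0 and 3.33 FPKM in Control and 3.93, 3.58 and 4.13 FPKM in PS. PS replicate 2 of Kif13b lay below Control replicate 1, and its log2 fold change of 0.16 was the largest of the class (adjusted p = 0.868, limma). All 6 kinesin-3 genes compared were fitted above Control, with a median log2 fold change of 0.047 (just below 0 with library weights), and 0 were called. Kif1c, Kif13a and Kif16b, which carry dense-core vesicles, melanosome and endosome cargo, had group means of 20.1 and 20.9, 5.30 and 5.53, and 1.51 and 1.56 FPKM in Control and PS, and each overlapped. The split within Kif1 was steady, with Kif1a at 65.9 ± 0.43% of the Kif1a, Kif1b and Kif1c FPKM in Control and 66.0 ± 0.39% in PS.

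The remaining kinesins above the level compared include some that act on microtubule ends and some that walk to the minus end. Kif21a, a kinesin-4 that restrains microtubule growth, was at 16.4, 14.1 and 14.3 FPKM in Control and 15.9, 14.2 and 14.8 FPKM in PS. Kif21b, its neuronal relative, was at 6.52, 7.91 and 5.53 FPKM in Control and 5.91, 6.15 and 6.18 FPKM in PS, and its PS libraries lay inside the Control range. Kif2a, a microtubule depolymerase of neurons, was at 16.7, 16.5 and 14.6 FPKM in Control and 15.7, 15.1 and 14.01 FPKM in PS. The groups overlapped for all 3 genes, and the log2 fold change of Kif2a was -0.089 ± 0.072. Kifc2, a minus-end motor of dendrites, was at 71.2, 84.7 and 76.1 FPKM in Control and 73.1, 77.9 and 79.6 FPKM in PS. Kifc3, a minus-end motor that also serves cell junctions, was at 9.01, 8.33 and 9.23 FPKM in Control and 9.67, 9.54 and 9.30 FPKM in PS. Kif26b, an atypical kinesin, had a mean of 2.07 FPKM in both groups. For Kifc3 all PS libraries were above all Control libraries, by a log2 fold change of 0.092 ± 0.062 (adjusted p = 0.94, limma). Kif2a shares 1229 exon bases with Dimt1, a gene on the opposite strand. The sources used here do not state whether reads were counted by strand.

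Cytoplasmic dynein 1 is the main minus-end motor of axons. Its motor subunit Dync1h1, mutated in an inherited spinal muscular atrophy, was at 47.2, 48.2 and 40.6 FPKM in Control and 50.9, 47.6 and 45.9 FPKM in PS. Control replicate 3 was the lowest library and PS replicate 1 the highest, and the log2 fold change was 0.088 ± 0.077 (adjusted p = 0.973, limma). Dync1i1, the neuronal intermediate chain that binds dynactin, was at 56.6, 56.5 and 57.8 FPKM in Control and 55.4, 62.0 and 52.3 FPKM in PS. The Control libraries of Dync1i1 lay between the extremes of PS. Dync1i1 made up 60.5% of the intermediate chain FPKM in both groups, with an SD of 0.64 in Control and 0.92 in PS. Its paralog Dync1i2, found in most cell types, had means of 37.3 and 36.8 FPKM in Control and PS.

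The light intermediate chains bind the adaptors that load cargo onto dynein. Dync1li1 was at 39.5, 34.3 and 35.3 FPKM in Control and 39.2, 38.4 and 37.2 FPKM in PS. Dync1li2 was at 36.7, 33.9 and 33.7 FPKM in Control and 34.6, 32.6 and 33.7 FPKM in PS. Neither separated the groups, at log2 fold changes of 0.074 ± 0.066 and -0.045 ± 0.059. As a share of the pair, Dync1li1 was at 51.8, 50.3 and 51.2% in Control and 53.1, 54.1 and 52.4% in PS. All PS shares were above all Control shares, by 2.12 points on average, and leaving out any 1 library kept the difference between 1.67 and 2.51 points. Dync1li2 shares 427 exon bases with K230015D01Rik on the opposite strand, and the part of that overlap in the shares was not tested. Over the 8 paralog sets, Kif3b and this pair were the shares whose groups did not overlap, 3 of 21 with both members of the pair counted. The shares of a pair mirror each other, so this pair holds a single difference. By FPKM, groups did not overlap for 11.3% of all genes tested, so a count this small is not read as a result. None of the shares was tested.

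Dynein 2 drives transport back along cilia. Its heavy chain Dync2h1 was at 2.66, 2.57 and 1.99 FPKM in Control and 2.91, 2.73 and 2.42 FPKM in PS. Its light intermediate chain Dync2li1 was at 10.4, 8.73 and 13.1 FPKM in Control and 11.7, 12.9 and 11.0 FPKM in PS. Both overlapped, with log2 fold changes of 0.12 ± 0.097 and 0.15 ± 0.125, and Dync2li1 had the widest 95% interval toward higher values of the set, reaching 0.43. Single libraries moved both values: Dync2h1 was at 0.026 without Control replicate 3 and 0.17 without Control replicate 1, and Dync2li1 at 0.019 without Control replicate 2 and 0.29 without Control replicate 3.

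The dynein light chains include the highest dynein genes. Dynll2, a dimer-forming hub protein that also binds myosin 5a, was at 278, 237 and 279 FPKM in Control and 273, 269 and 274.5 FPKM in PS. Dynlrb1, a roadblock chain, was at 129, 127 and 144 FPKM in Control and 129.7, 141 and 133 FPKM in PS. Control replicate 2 was the lowest library of both genes, and both overlapped between the groups. Dynlrb2, the roadblock chain of cilia, was at 2.94, 2.97 and 4.07 FPKM in Control and 3.06, 3.47 and 2.96 FPKM in PS. Dynll1, the paralog of Dynll2, had means of 87.1 and 85.9 FPKM in Control and PS, and Dynlt3, a Tctex-type chain, 73.2 and 70.8 FPKM, and both overlapped. Dynlrb2 supplied 2.41 ± 0.28% of the roadblock FPKM in Control and 2.29 ± 0.11% in PS.

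Dynlt1b, a Tctex-type light chain, was the other motor gene under an unadjusted p of 0.05. It was at 4.08, 3.64 and 3.50 FPKM in Control and 2.88, 3.57 and 2.95 FPKM in PS, from 89 to 125 reads. PS replicates 1 and 3 were below all Control libraries, and PS replicate 2 lay between Control replicates 2 and 3. Its log2 fold change was -0.20 ± 0.087, with an unadjusted p of 0.0487 and an adjusted p of 0.838 in limma. Library weights, under which limma called 5.17% of all genes, gave -0.28 and an adjusted p of 0.0442. Limma-voom on genes with a mean of at least 10 recovered reads gave -0.26, with an unadjusted p of 0.186.

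Reads of Dynlt1b are hard to place, because mouse holds near-identical copies of the gene. Of its 50-base words, 83.2% occurred in another gene of the GENCODE M21 transcripts, with 88.9% for Dynlt1c, 88.6% for Dynlt1f and 70.5% for Dynlt1a. The open reading frames of Dynlt1b, Dynlt1c and Dynlt1f were 342 bases long and differed by 1 base between Dynlt1b and each of the others, and by 0 bases between Dynlt1c and Dynlt1f. The first 60 coding bases hold that difference, marked by the capital letter.
Dynlt1b: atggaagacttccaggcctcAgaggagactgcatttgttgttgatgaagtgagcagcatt
Dynlt1c and Dynlt1f: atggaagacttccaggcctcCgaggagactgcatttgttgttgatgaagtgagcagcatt
Dynlt1f was at 1.28, 0.985 and 1.71 FPKM in Control and 1.502, 1.79 and 0.751 FPKM in PS, the largest relative spread of the 43 genes. The sources used here do not state how reads matching several copies were assigned, so the separate values of these copies are uncertain.

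Dynactin ties dynein to its cargo and keeps it on the microtubule. Dctn1, the p150Glued subunit whose human mutations cause motor neuron disease and Perry syndrome, was at 49.3, 47.8 and 46.7 FPKM in Control and 49.1, 50.2 and 48.4 FPKM in PS. Its log2 fold change was 0.037 ± 0.053, with a 95% interval of -0.083 to 0.16. Dctn2, the dynamitin subunit of the shoulder, was at 78.0, 75.0 and 86.0 FPKM in Control and 78.6, 84.3 and 81.7 FPKM in PS. Both genes overlapped between the groups. Dctn3, the smallest shoulder subunit, was at 38.1, 34.0 and 37.7 FPKM in Control and 38.6, 43.3 and 38.4 FPKM in PS. All PS libraries of Dctn3 were above all Control libraries, though PS replicates 1 and 3 exceeded the highest Control by under 1 FPKM (log2 fold change 0.13 ± 0.071, adjusted p = 0.886, limma). Dctn4, of the pointed end, went the other way, at 30.5, 30.3 and 32.8 FPKM in Control and 29.1, 30.0 and 29.1 FPKM in PS (log2 fold change -0.084 ± 0.056). Dctn5 and Dctn6, also of the pointed end, overlapped, with means of 40.7 and 18.6 FPKM in Control and 43.7 and 18.6 FPKM in PS. Of the 6 dynactin genes, 5 were fitted above Control and 1 below, and 0 were called.

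The 27 motor genes below a mean of 1 FPKM were not part of that comparison. Kif12 was at 0 in every library, and 7 others had a mean under 10 reads, among them Kif16bos and Kif19b. The other 19 were compared by limma-voom on recovered reads, over all 16507 genes with a mean of at least 10 reads, an analysis added after the data had been seen. In it 0 of 62 motor genes were called, against 31 of all genes (0.188%), and the lowest adjusted p was 0.246. At an unadjusted p under 0.05 limma-voom gave 8 motor genes, against 6.06% of all genes. With the replicate block limma-voom called 86 genes and 0 motor genes. Of the 19 low genes, 6 (31.6%) had groups that did not overlap, against 11% of all genes in the same range of levels. Limma-voom put 6 of the 19 under an unadjusted p of 0.05, against 5.73% of those genes. Kif19a, Kif9, Kif6, Kif26a and Kif24 were above in PS, as were 6.05% of the genes in that range, and Kif7 was below, as were 4.93%. These genes were singled out after their values were seen.

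Kif19a, a kinesin that trims the tips of motile cilia, had the lowest p of the low genes. It was at 0.609, 0.520 and 0.566 FPKM in Control and 1.11, 1.02 and 0.888 FPKM in PS, from 70 to 152 reads. The mean of 1.004 ± 0.11 FPKM in PS (SD, n = 3) was 1.78 times the Control mean of 0.565 ± 0.045 FPKM. Its log2 fold change was 0.82 ± 0.19 in limma-voom, with an unadjusted p of 0.00105 and an adjusted p of 0.246, so Kif19a was not called. With the replicate numbers as a block the adjusted p was 0.109 in limma-voom. With 1 library left out the log2 fold change of Kif19a ran from 0.75 to 0.91, and its adjusted p in limma-voom rose as high as 0.999.

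Kif9 and Kif6 also belong to motile cilia. Kif9 was at 0.580, 0.627 and 0.777 FPKM in Control and 0.8998, 1.02 and 0.809 FPKM in PS, from 101 to 180 reads. Kif6 was at 0.143, 0.201 and 0.248 FPKM in Control and 0.288, 0.313 and 0.256 FPKM in PS, from 41 to 91 reads. For both, Control replicate 3 came close to PS replicate 3, and the limma-voom log2 fold changes were 0.46 (adjusted p = 0.766) and 0.56 (adjusted p = 0.824). Kif27, another kinesin tied to motile cilia, did not share this order, at 0.428, 0.442 and 0.429 FPKM in Control and 0.404, 0.419 and 0.526 FPKM in PS. Nor did Dynlrb2, given with the light chains.

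Markers of the ependyma, the ciliated lining of the ventricles, were read beside these genes. Their sum was 24.7, 15.6 and 30.6 FPKM in Control and 27.9, 23.7 and 26.9 FPKM in PS. The groups overlapped, all 6 of the 8 markers that could be compared were fitted above Control, with a median log2 fold change of 0.13, and 0 were called. None of the markers was at 0 in a library. Choroid plexus markers, which depend on how much of that tissue was taken, summed to 1099, 630.4 and 989 FPKM in Control and 1290, 778 and 1058 FPKM in PS. The part of ependymal or choroid plexus content in the values of Kif19a, Kif9 and Kif6 was not tested.

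**Figure D4:**
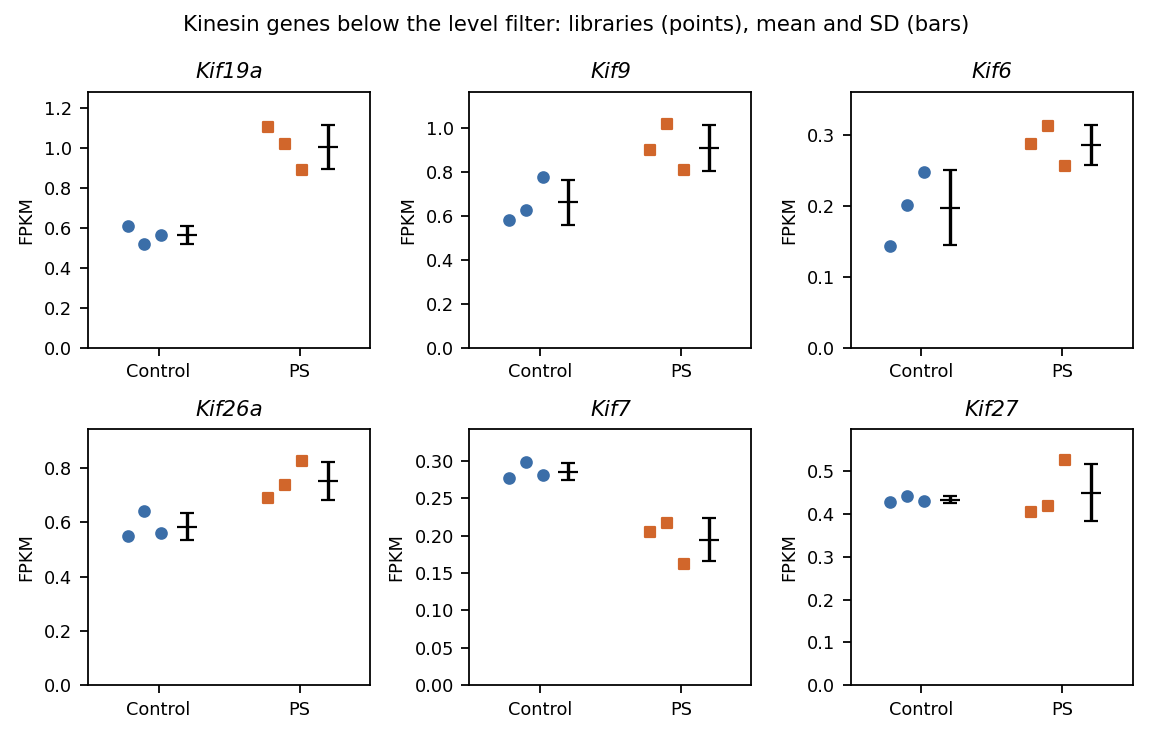
FPKM (y axis) of 6 kinesin genes below a mean of 1 FPKM in each library (points; x axis, group), with the group mean and SD as bars. Kif19a, Kif9, Kif6 and Kif26a are above in all 3 PS libraries, Kif7 is below, and Kif27 overlaps; 0 of the 6 were called.

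Kif2c, a mitotic depolymerase, was at 0.0231, 0.117 and 0.0309 FPKM in Control and 0.0612, 0.0304 and 0.0153 FPKM in PS, from 2 to 15 reads, and overlapped. Kif26a, an atypical kinesin without motor activity, was at 0.551, 0.641 and 0.561 FPKM in Control and 0.690, 0.740 and 0.828 FPKM in PS (limma-voom log2 fold change 0.36, adjusted p = 0.758). Kif7, a regulator of Hedgehog signalling in primary cilia, was at 0.276, 0.299 and 0.282 FPKM in Control and 0.204, 0.217 and 0.163 FPKM in PS. Its log2 fold change was -0.56 (adjusted p = 0.819, limma-voom), and 877 of its exon bases overlap 9330171B17Rik on the opposite strand. Kif24, a centriolar depolymerase, was at 0.0131, 0.0159 and 0.0171 FPKM in Control and 0.0260, 0.0375 and 0.0313 FPKM in PS. Its ratio of group means, 2.05, was larger than that of Kif19a but rested on only 10 to 29 reads per library (adjusted p = 0.705, limma-voom).

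Kinesins of the mitotic spindle were close to the lower end of the measurement. The 10 spindle kinesins summed to 1.85 to 2.29 FPKM in Control and 1.995 to 2.27 FPKM in PS. Kif22, which moves chromosome arms, was at 0.492, 0.359 and 0.630 FPKM in Control and 0.351, 0.630 and 0.431 FPKM in PS. Kifc5b was at 0.297, 0.543 and 0.375 FPKM in Control and 0.570, 0.604 and 0.504 FPKM in PS, and it shares 37.4% of its 50-base words with another gene. Both overlapped between the groups. The other spindle kinesins, and Kif4 and Kif14 with them, had means under 0.4 FPKM in each group and overlapped as well. Mki67, the classic marker of dividing cells, was at 0.095 ± 0.043 FPKM in Control and 0.10 ± 0.031 FPKM in PS.

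Other genes of microtubule transport were read from lists beside the motors. Of 44 transport adaptors and regulators above 1 FPKM, 22 were higher and 22 lower in PS, 0 were called, and 0 were under an unadjusted p of 0.05. The median log2 fold change was -0.003. Trak1, which couples mitochondria to kinesin-1, and Hook1, a dynein adaptor, each had a log2 fold change of -0.11, and Kidins220, a membrane cargo of kinesin-1, one of 0.087. Of 14 tubulin genes, 9 were higher and 5 lower, with 0 called. Those with the lowest unadjusted p were Tuba1b, Tuba8 and Tubg1, at log2 fold changes of -0.10, -0.14 and 0.090.

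Microtubule-associated proteins gave 12 higher and 10 lower genes of 22, with 0 called. Map6, which stabilises neuronal microtubules, was the only one of them under an unadjusted p of 0.05. It was at 20.9, 19.1 and 20.3 FPKM in Control and 22.5, 22.5 and 21.5 FPKM in PS (log2 fold change 0.14, adjusted p = 0.837, limma). All PS libraries of Map6 were above all Control libraries. Neither these lists nor the motor set held a called gene.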

How the data were processed

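Per the labels' protocols, brain RNA was isolated with TRIzol and libraries were prepared with a VAHTS Universal V6 kit. The authors deposited 1 table of FPKM per library. The submitters' processing notes name GRCm39 as the build and list HTSeq, HISAT2, fastp and R 3.2.0, without settings. The reference available here, GRCm38, differs, so it served only for names, exon overlaps, shared words and the sequences shown.

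Steps in the FPKM gave whole reads, within 0.02 reads, for 99.99% of the 26556 genes above 0, and so the totals, of which listed genes held 99.54 to 99.56%. Replicates of a group differed by more than sampling noise (chi-square per degree of freedom 8.56 to 31.6). PS was set against Control by limma 3.58.1 (R 4.3.3) on log2(FPKM + 1), with group only and a variance trend, two-sided. The 12229 genes whose mean FPKM was 1 or more entered, and p-values were adjusted by Benjamini-Hochberg over them. The labels do not say that a Control and a PS library of the same number belong together. Their deviations correlated weakly (0.181, 0.185 and 0.161). With 3 libraries a group these correlations are not independent, so they cannot show whether the libraries were paired. The main p-values therefore assume no pairs. Limma with replicate number as a second factor (the replicate block) was run as an alternative, and its results are named as such. On simulated data of this comparison with 12198 genes, limma called 96.9% of 2-fold and 78.4% of 1.5-fold changes. The simulated noise was independent between genes, had no shift shared by a library and took its spread from the log2(FPKM + 1) scale. These rates may thus be too high for the real libraries. Values in each library are given for the 2 highest genes of each role, for genes under an unadjusted p of 0.05 and for 7 transport genes (Kif5a, Kif5b, Kif5c, Kif1a, Klc1, Dync1h1, Dctn1), and others were added for description. The motor genes and all lists were chosen with earlier results of these data known. Alternatives covered pseudocounts, level filters, scaling, variance models, library weights, recovered reads and leaving out each library.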

Additional observations from a re-analysis of the deposited data

How the results depend on the processing

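No motor gene was called by limma under other pseudocounts, filters, scalings and variance models, on recovered reads, with the replicate block or without any 1 library (0 in each). Library weights were the exception, with 3 called: Kif17, Kif5b and Dynlt1b. The count over all genes, 20, was less steady, at 1 with no filter, 9 at a mean FPKM of at least 5, 632 with library weights, 44 at an unadjusted p under 0.05 with 1.5-fold, and 0 to 66 with 1 library left out (0 without PS replicate 2, 2 without Control replicate 1 or PS replicate 1, 66 without Control replicate 3). Limma-voom on genes with at least 10 reads, added after the data were seen, gave 31. The replicate block, which pairs libraries of the same number, gave 48 on FPKM and 86 in limma-voom, and it changed no call of a motor gene. The median log2 fold change of the motor genes was -0.003 to 0.035 with 1 library left out and -0.011 with library weights. By reads in place of FPKM, the share of Kif3b differed by -1.93 points.

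Genes fitted near 0 changed sign under some settings, and the cause was not tested. With 1 library left out, the log2 fold change ran from -0.007 to 0.091 for Dctn2, -0.0807 to 0.0399 for Dync1i1, -0.0335 to 0.0832 for Dynll2, -0.024 to 0.067 for Dynlrb1 and -0.018 to 0.073 for Kif1b. The ranges were -0.0398 to 0.0663 for Kif21a, -0.21 to 0.015 for Kif21b, -0.0505 to 0.000278 for Kif3c, -0.063 to 0.0605 for Kifc2 and -0.0417 to 0.0601 for Klc2. Library weights gave -0.031 for Dync1li1, -0.0195 for Dynll2, -0.011 for Kif1b, -0.115 for Kif21a, 0.098 for Kifc2 and -0.055 for Klc2. Rescaling without mitochondrial genes gave -0.0076 for Kif21a, and rescaling to a sum of 1000000 gave 0.0025 for Kifc2. With 3 libraries a group, differences smaller than the intervals given for each gene were not detectable, and for genes under 1 FPKM counting error adds to that. The intervals are per gene, without adjustment over the 12229 genes tested, so larger differences could also go uncalled. Those of Kif17 and Dynlt1b left out 0, and neither gene was called in the main comparison.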
